A study of Mus musculus with 16 samples.

Results

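The small leucine-rich proteoglycans are secreted proteins whose core is a row of leucine-rich repeats, and most of them carry sulphated sugar chains. They bind the surface of collagen fibrils and set fibril spacing and diameter, and several also bind growth factors of the TGF-beta family or, once released from the matrix, receptors on immune cells. In skin and cartilage they are made mainly by fibroblasts and chondrocytes. The genes of this family described here are Dcn (decorin), Bgn (biglycan) and Aspn (asporin) of class I, Lum (lumican), Fmod (fibromodulin), Prelp and Omd (osteomodulin) of class II, Ogn (osteoglycin) of class III, and Podn (podocan), which belongs to a class of its own with Podnl1. They were chosen by name, 9 of the 45706 gene identifiers in the table of counts, and all 9 passed the filter on low counts that left 21526 genes for testing.

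Their messenger RNA was measured by RNA-seq in pieces of ear from 8 males of the inbred strain C57BL/6J, with no transgene or treatment named for any of them. A biopsy of one ear was taken with a 3 mm cutter at about 24 months of age (23.8 to 24.4 months by the labels) and a piece of the other ear at about 30 months (29.0 to 30.1 months), which gave 16 libraries, 8 at each age, paired within the mouse. Age therefore cannot be told apart from which ear was cut first. The libraries held 22967222 to 36162431 reads counted on genes (median 28922265), so that the member with the fewest reads in any library, Omd, still had 497 there. The sources used here do not say whether the counting used strand. Exons of Prelp overlap those of the antisense gene Gm15851 over 350 bases, 9.7% of the exon length of Prelp, but Gm15851 was at a mean of 0.118 CPM (counts scaled to a common library size) beside 95.4 CPM for Prelp, and exons of Aspn overlap those of Cenpp over 7 bases.

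A number of the genes are neighbours in the mouse genome (GRCm38). Dcn (chr10:97479609-97518143) lies 47.0 kb before Lum (chr10:97565128-97572703) on the same strand, with Kera and Epyc of the same family beyond. Aspn (chr13:49544443-49567565), Omd (chr13:49582462-49592822) and Ogn (chr13:49608046-49624501) follow each other with gaps of 14.9 and 15.2 kb, preceded by Ecm2. Prelp (chr1:133910304-133921414) and Fmod (chr1:134037254-134048277) are on opposite strands of chromosome 1, 115.8 kb apart, and Optc lies 2.3 kb from Prelp. Podn (chr4:108014791-108096445) and Bgn (chrX:73483602-73495933) have no other gene of the family beside them.

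Sequences just before the annotated start were available from RefSeq (GRCm38.p6) for 7 of the 9 genes, which does not include Dcn and Lum. They are shown for Bgn and Podn, whose levels varied together most closely among the genes with a sequence, and for Fmod and Omd, which varied together apart from them (values are given further on). Omd varied more closely with Aspn than with Fmod over the libraries. For Podn the RefSeq start is 64.5 kb inside the outermost end of the GENCODE span given above, and the first of 2 RefSeq windows was used. Each stretch is the 120 bases before the start, 5′ to 3′ on the gene's strand, and capitals mark the letters GGGCGG of the GC box on either strand, which on the opposite strand read CCGCCC.
Bgn, chrX:73483481-73483600, plus strand: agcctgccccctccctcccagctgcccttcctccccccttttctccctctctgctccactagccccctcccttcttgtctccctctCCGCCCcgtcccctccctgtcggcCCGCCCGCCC
Podn, chr4:108031955-108032074, minus strand: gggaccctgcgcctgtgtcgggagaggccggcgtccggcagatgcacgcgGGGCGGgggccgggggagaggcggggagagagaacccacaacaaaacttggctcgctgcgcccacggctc
Fmod, chr1:134037134-134037253, plus strand: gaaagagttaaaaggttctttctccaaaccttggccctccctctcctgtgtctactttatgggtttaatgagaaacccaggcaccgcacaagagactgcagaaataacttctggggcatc
Omd, chr13:49582342-49582461, plus strand: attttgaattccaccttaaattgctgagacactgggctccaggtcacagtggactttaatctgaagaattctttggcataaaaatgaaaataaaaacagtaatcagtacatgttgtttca

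In the 250 bases before the start, the GC box was found in 2 of the 7 genes, Bgn and Podn, and in 32.94% of 27025 promoters of the same length. Bgn held 3 copies, of which the last 2 overlap each other, and Podn held 2, of which 1 lies outside the stretch shown. The G and C content of these 250 bases was 64.4% for Bgn and 78.0% for Podn, with a median of 52.0% over all promoters. It was 55.6% for Prelp, 51.2% for Fmod, 42.0% for Ogn, 38.4% for Omd and 30.0% for Aspn. The other motifs searched, on both strands, were TATAAA, found in Aspn and Ogn and in 12.97% of all promoters, CCAAT, found in Prelp and Aspn and in 34.46%, and TGANTCA of the AP-1 site, found in none of the 7 and in 6.87%. The TATAAA matches lay far from the start, 178 and 207 bases before it in Aspn and 227 and 229 bases in Ogn. None of these letters was found in the 250 bases of Fmod and Omd. A match describes the letters only.

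The first question was how much of each transcript the ear held. Per kilobase of exon, Dcn was far above the rest. Its level was 427 ± 67.0 CPM per kilobase (RPKM, mean ± SD, n = 8) at 24 months and 417 ± 121 at 30 months, and it exceeded Bgn, the next gene in order of the mean, in all 16 libraries. In reads, Dcn alone made up 58.4% to 72.5% of the CPM summed over the 9 genes (median 67.0%), and this sum was between 2703 and 4930 CPM of a library.

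Bgn, Fmod, Lum and Aspn followed at close to the same level per length. Over all 16 libraries their means were 69.5, 69.4, 66.3 and 61.6 RPKM. Neighbours in this group could not be ordered: Bgn was above Fmod in 6 of 16 libraries, Fmod above Lum in 11 and Lum above Aspn in 6, and over the 8 mice the log2 ratios of these neighbours did not pass an exact two-sided sign-flip permutation test (adjusted p = 0.805, 0.488 and 0.805, Benjamini-Hochberg over the 8 neighbouring pairs). Aspn in turn was above Ogn in all 16 libraries, by 1.12 ± 0.19 on the log2 scale (SD over mice, exact permutation adjusted p = 0.0208).

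Ogn and Prelp formed the next pair, at 28.9 and 26.4 RPKM, and their order was not resolved (exact permutation adjusted p = 0.719). Prelp was above Omd (16.0 RPKM) in 15 of 16 libraries, and Omd above Podn (12.04 RPKM) in 12, with exact permutation adjusted p = 0.0208 and 0.0312. With 8 mice the smallest unadjusted p that this test can give is 0.00781. The neighbouring pairs were set by the means of these same libraries, so the p-values describe the gaps and give no independent support for the order. The length used matters for Bgn: its annotated exons add up to 6099 bases, while its longest transcript has 2666, and with the latter its level was 159 RPKM and no longer beside Fmod (73.6 RPKM). The order of the means was the same with either length.

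**Figure D1:**
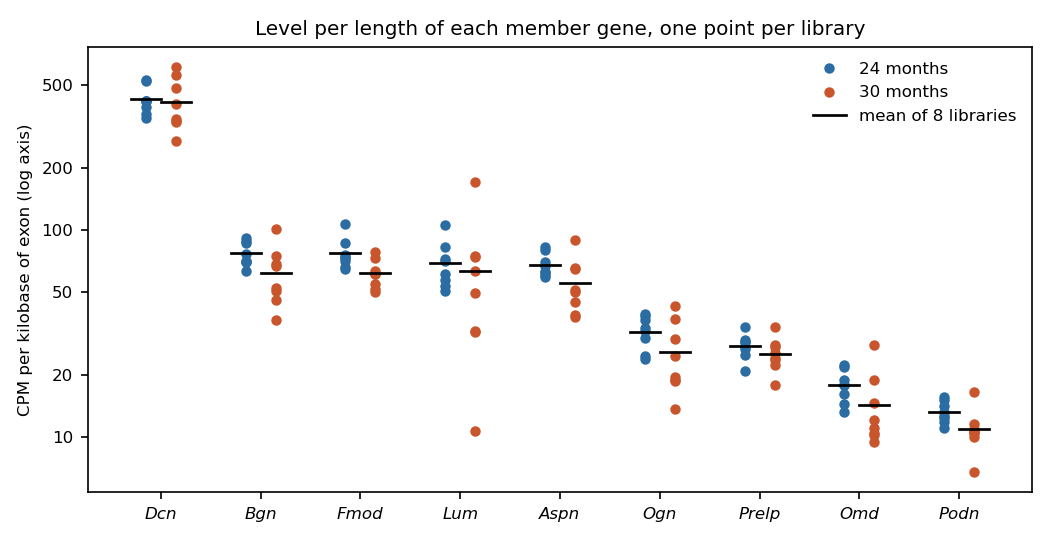
Level per length of each gene (CPM per kilobase of annotated exon, logarithmic axis), with 1 point per library at 24 months (blue) and 30 months (orange) and a black line at the mean of 8 libraries. Dcn lies above all others in every library, Bgn, Fmod, Lum and Aspn overlap, and the points of Lum at 30 months spread from 10.6 to 169.6 RPKM.

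The main comparison was between 24 and 30 months within the same mouse. All 9 genes had a lower fitted level at 30 months, with a median log2 fold change of -0.34 beside 0.01 over all genes tested, and 48.3% of all genes tested had a fold change below 0. No member passed an adjusted p of 0.05 in edgeR's quasi-likelihood test, blocked by mouse (Benjamini-Hochberg over 21526 genes), and neither did any other gene: the background is 0% and the smallest adjusted p of all genes was 0.0696. At an unadjusted p under 0.05 there were 5 members, Bgn, Fmod, Aspn, Ogn and Podn, all lower at 30 months, where 7.18% of all genes tested were. DESeq2's Wald test gave 240 genes past the adjusted threshold and limma-voom 0, with no member among them. The members' differences are therefore given as values, without a call. Since these are pieces of whole tissue, fewer cells of a type and less RNA per cell cannot be told apart.

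Of the class I genes, decorin, which binds collagen I and TGF-beta, differed least with age. Dcn ranged from 2022 through a median of 2450 to 3083 CPM at 24 months and from 1577 through 2179 to 3564 CPM at 30 months. The groups overlapped, with 4 libraries at 30 months below and 2 above everything seen at 24 months. Its log2 fold change was -0.07 ± 0.15 (SE, edgeR adjusted p = 0.857), it was lower in 5 of 8 mice, and the value was above 0 without mouse 13 (0.017) or mouse 21 (0.015).

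Biglycan is the closest relative of decorin and, when set free, a ligand of Toll-like receptors. Bgn ranged from 387 (median 449) to 557 CPM at 24 months and from 224 (median 363) to 614 CPM at 30 months. It was lower at 30 months in 7 of 8 mice, with log2 changes of -0.20 to -0.93, and higher in mouse 50 alone, which gave the highest library of all. The fitted difference was -0.37 ± 0.13 (edgeR adjusted p = 0.341). Without mouse 50 it was -0.49 ± 0.10 (edgeR adjusted p = 0.213), and without mouse 29 it was -0.28 ± 0.13 (edgeR adjusted p = 0.543).

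Asporin binds collagen and TGF-beta and, unlike the other class I members, usually carries no sugar chain of this kind. Aspn lay between 139 and 194 CPM at 24 months (median 152) and between 89.2 and 209.9 CPM at 30 months (median 119.7). It was lower in 6 of 8 mice, most in mouse 13 (-1.09), and 5 of the 8 libraries at 30 months were below all those at 24 months. Its log2 fold change was -0.34 ± 0.13 (edgeR adjusted p = 0.351), and without mouse 13 it was -0.23.

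Among the class II genes, fibromodulin, which is needed for regular collagen fibrils in tendon, had the smallest spread of changes within mice (SD 0.365 on the log2 scale). Fmod was at 213 to 352 CPM at 24 months (median 244) and at 165 to 257 CPM at 30 months (median 202). In 6 of the 8 libraries at 30 months it was below the lowest at 24 months and in none above the highest. It was lower in 6 of 8 mice, from -0.12 to -1.04, while mice 64 and 75 were at 0.06 and 0.08. The log2 fold change was -0.32 ± 0.12 (edgeR adjusted p = 0.332). Fmod was the only member whose unadjusted p stayed under 0.05 whichever mouse was left out, with fold changes of -0.38 to -0.21, although without mouse 21 the value was closest to 0.

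Lumican, which is best known from the transparent cornea, was the most variable member. At 24 months Lum was at 124 to 258 CPM (median 162), and at 30 months it ran from 26.0 CPM in mouse 29 through a median of 138 to 415 CPM in mouse 50, a 16.0-fold range against 2.08-fold at 24 months. The log2 change was -2.44 in mouse 29 and 1.74 in mouse 50, and 3 of the 8 mice were higher. The log2 fold change was -0.47 ± 0.36 (edgeR adjusted p = 0.615). It moved with single mice, to -0.75 without mouse 50 and to -0.20 without mouse 29, and was -0.13 ± 0.37 in the fit without a term for each mouse.

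Prelp, which links basement membranes to the collagen below them, differed little. It was at 75.4 to 122 CPM at 24 months (median 101) and at 64.3 to 123 CPM at 30 months (median 89.1). Only 1 library at 30 months was below and 1 above the range at 24 months. Its log2 fold change was -0.13 ± 0.12 (edgeR adjusted p = 0.663), and -0.02 without mouse 43, which had the largest difference (-0.93).

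Osteomodulin was first known from bone and is the least abundant class II member here. Omd was at 29.7 to 50.1 CPM at 24 months (median 40.1) and at 21.2 to 62.1 CPM at 30 months (median 25.9). At 30 months 5 libraries were below every one at 24 months, while mouse 64 was above them all, at 62.1 CPM against 32.6 CPM in its first ear. The log2 fold change was -0.40 ± 0.21 (edgeR adjusted p = 0.466). Without mouse 64 it was -0.58 ± 0.15 (edgeR adjusted p = 0.289), and without mouse 13 it was -0.29 ± 0.21 (edgeR adjusted p = 0.6).

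Osteoglycin, also called mimecan, split the mice. Ogn was at 61.0 to 100.2 CPM at 24 months (median 84.4) and at 35.0 to 110.6 CPM at 30 months (median 56.6). Mice 13, 29 and 43 had log2 changes of -1.04, -1.14 and -1.05, whereas the other 5 lay between -0.28 and 0.36. The log2 fold change was -0.40 ± 0.18 (edgeR adjusted p = 0.403).

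Podocan restrains the growth of smooth muscle cells in the artery wall. Podn was at 47.3 to 66.4 CPM at 24 months (median 54.8) and at 28.8 to 70.4 CPM at 30 months (median 45.03). As with Bgn, 7 of 8 mice were lower and mouse 50 was higher, and 6 libraries at 30 months were below the range at 24 months. The log2 fold change was -0.30 ± 0.13 (edgeR adjusted p = 0.383). Without mouse 50 it was -0.43 ± 0.08 (edgeR adjusted p = 0.202), and without mouse 29 it was -0.227 ± 0.125 (edgeR adjusted p = 0.596). Bgn and Podn were the 2 members lower in at least 7 of 8 mice, where 8.33% of all genes tested were.

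**Figure D2:**
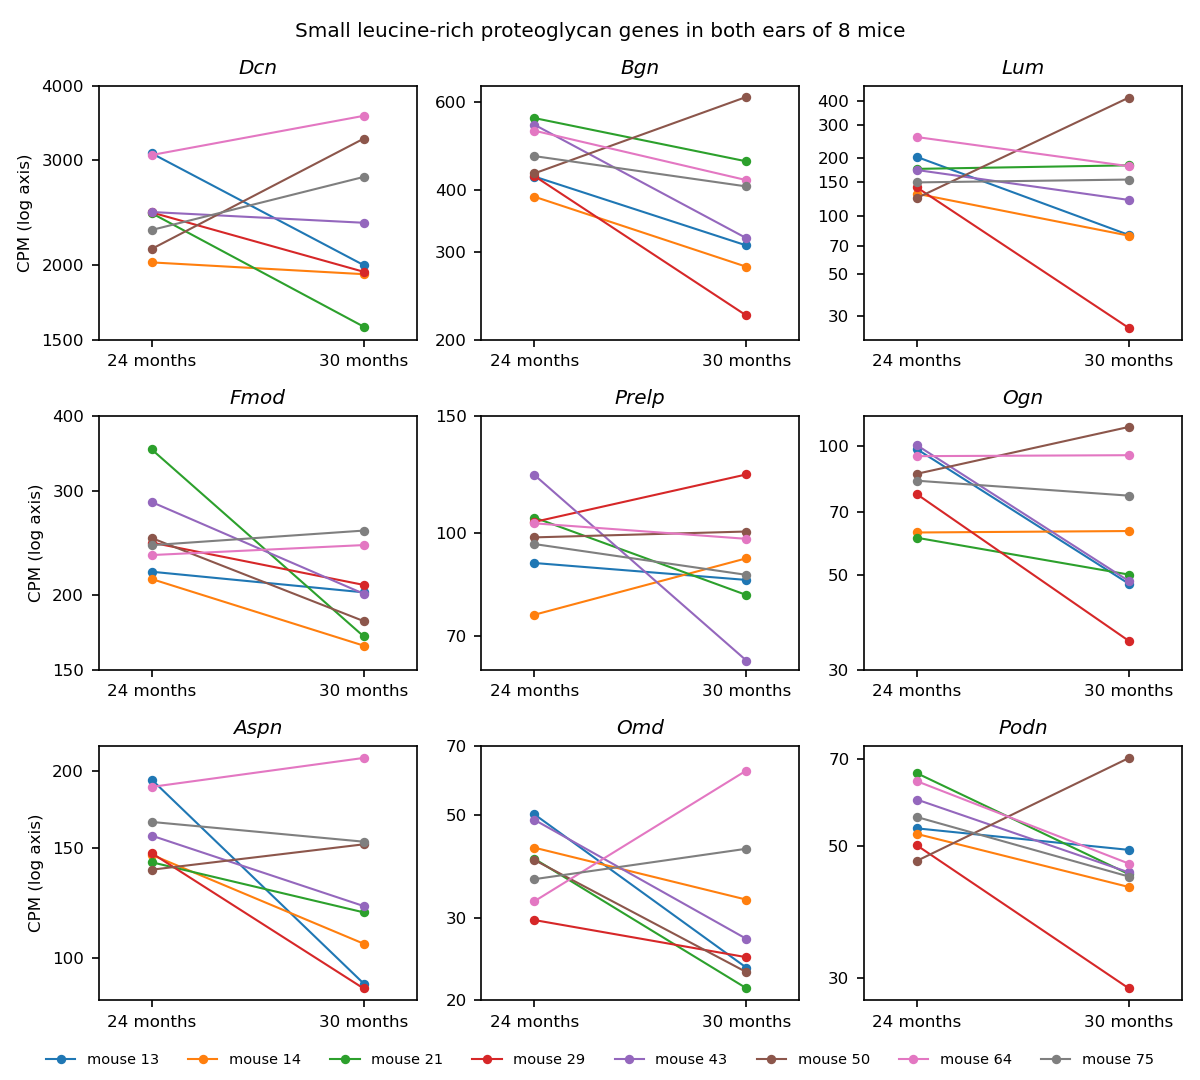
CPM of each gene (logarithmic axis) at 24 and at 30 months, with a line joining both ears of each mouse. The lines of Bgn and Podn go down in all mice but mouse 50, and Lum fans out to 26.0 CPM in mouse 29 and 415 CPM in mouse 50.

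The count of 5 members at an unadjusted p under 0.05 depended on single animals and on the pairing. It was 1 without mouse 13 and 1 without mouse 29, 2 without mouse 43, 3 without mouse 14, 21 or 75, 5 without mouse 64 and 6 without mouse 50. In the fit without the replicate block, that is without a term for each mouse, it was 2 (Fmod and Podn). Over all 21526 genes tested, 2593 were under this p in the main fit. Leaving out single animals moved that background between 1833 (mouse 21 omitted) and 3772 (mouse 43 omitted). Members and background did not always move together: omitting mouse 43 or the replicate block raised the background while the members fell to 2. All 9 fitted fold changes stayed below 0 in each of these fits, except that of Dcn without mouse 13 or 21. In no fit did a member have an adjusted p below 0.184.

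**Figure D3:**
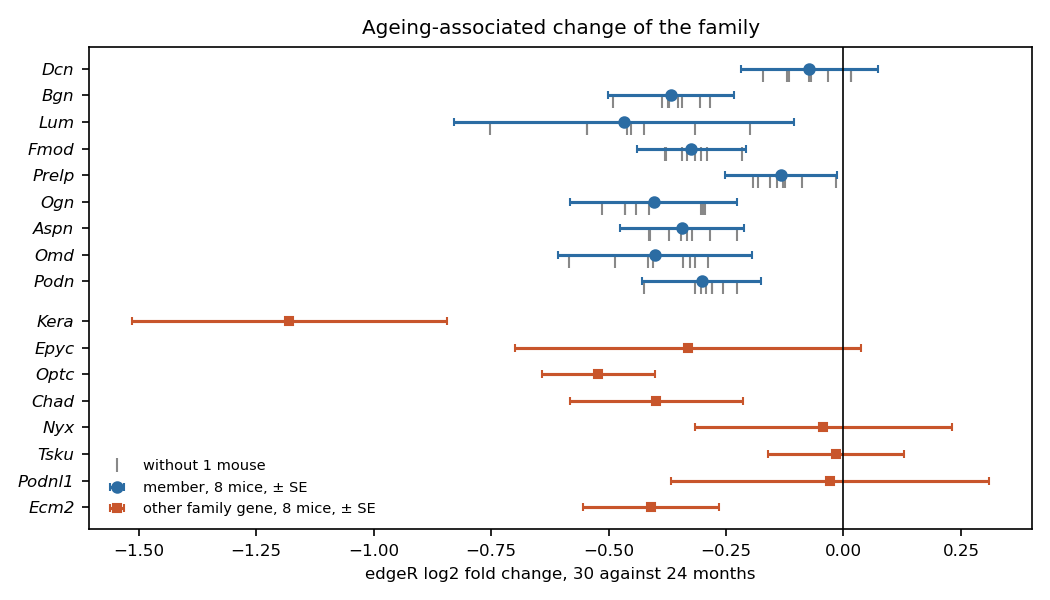
Log2 fold change of 30 against 24 months (edgeR, ± SE, 8 mice) for the 9 genes (blue circles) and 8 other genes of the family (orange squares), with grey ticks at the values obtained when each mouse in turn is left out. Every blue circle is below 0, the grey ticks of Dcn cross 0, and those of Lum run from -0.75 to -0.20.

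The spread between mice was larger at the later age. The SD of log2(CPM + 1) over the 8 mice was larger at 30 than at 24 months for 8 of the 9 genes, by a median of 2.02 times, but this held for 77.6% of all genes tested as well, with a median of 1.41 times. For Lum the SD went from 0.35 to 1.16, for Bgn from 0.19 to 0.46 and for Aspn from 0.18 to 0.42. Fmod was the exception, with 0.23 at either age.

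Seen by mouse, the members did not move as a block. In mice 13 and 43 all 9 genes were lower at 30 months, and in mice 21 and 29 8 of them. Mouse 50 went the other way, with 7 genes higher and only Fmod and Omd lower, and mouse 64 had 5 higher and 4 lower. The share of Dcn in the summed CPM was higher at 30 months in 6 of 8 mice, by 3.562 ± 4.004 percentage points (mean ± SD, n = 8). Relative to Dcn in the same library, Aspn was lower in 7 of 8 mice (mean log2 change -0.27 ± 0.29 SD), Bgn in 6 (-0.29 ± 0.38) and Prelp in 4 (-0.06 ± 0.55).

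**Figure D4:**
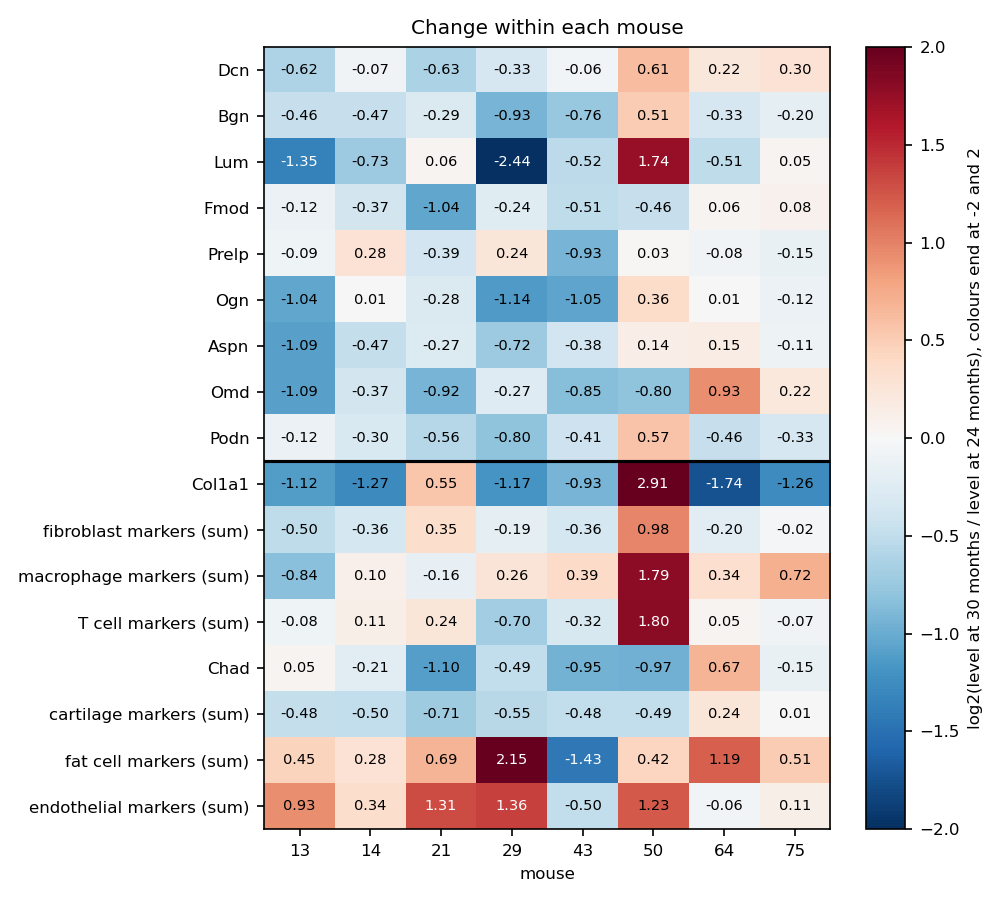
Log2 ratio of the level at 30 months to that at 24 months in each mouse (columns) for the 9 genes (above the line) and for Col1a1, Chad and summed marker lists (below it), red for higher and blue for lower at 30 months. Mouse 50 is red for Col1a1, Lum, Bgn and Podn and blue for Fmod, Omd, Chad and the cartilage sum.

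Some of the members varied together over the 16 libraries. As a description, Pearson's r of log2(CPM + 1) between 2 members was from -0.10 to 0.91 over the 36 pairs (median 0.48), all of which share the libraries and their depth. Bgn, Lum and Podn were closest to each other (r = 0.91 for Bgn and Lum, 0.88 for Bgn and Podn, 0.85 for Lum and Podn), and Ogn and Aspn followed (r = 0.85). Fmod was closest to Omd (0.59), whereas Omd was closer to Aspn (0.70), and neither Fmod nor Omd went with Lum (0.15 and 0.22). Prelp had no r above 0.43, which it reached with Fmod.

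For the closest pairs the changes within mice gave similar values, and for several others the sign turned. Over the 8 mice r was 0.91 for Bgn and Lum, 0.85 for Bgn and Podn, 0.79 for Ogn and Aspn and 0.65 for Fmod and Omd, whereas Fmod and Lum were at -0.27, Omd and Podn at -0.30 and Bgn and Fmod at -0.08 (0.44 over the libraries). Neighbours on a chromosome were not always the closest: r over the libraries was 0.59 for Dcn and Lum, 0.70 for Aspn and Omd, 0.55 for Omd and Ogn, 0.43 for Prelp and Fmod and 0.09 for Optc and Prelp (-0.56 over the changes). Ecm2 and Aspn, 11.7 kb apart, were at 0.85, and Lum and Kera, 34.2 kb apart, at 0.72.

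Levels of cell type markers varied with several of the members. Col1a1, the main chain of fibrillar collagen I, had r = 0.86 with Bgn, 0.83 with Lum and 0.77 with Podn over the libraries, but 0.05 with Fmod and -0.14 with Omd, and over the changes 0.78, 0.76, 0.73, -0.53 and -0.48 in the same order. In mouse 50 Col1a1 was higher at 30 months by 2.91 on the log2 scale and the summed fibroblast, endothelial, macrophage and T cell markers by 0.98, 1.23, 1.79 and 1.80. In the other mice Col1a1 changed by -1.74 to 0.55. Mouse 50 therefore weighs heavily in the r of Bgn, Lum and Podn with Col1a1 over the changes, which was not computed without it. The T cell sum had r = 0.63 with Bgn, 0.72 with Lum and 0.60 with Podn over the libraries. Over the changes these were 0.95, 0.89 and 0.90, above those with Col1a1, but -0.24 with Fmod and -0.20 with Omd. The fibroblast sum had 0.82 with Bgn, 0.80 with Lum and 0.61 with Podn over the changes. Dcn had r = 0.70 with the macrophage sum and -0.72 with the basal keratinocyte sum, and 0.89 and -0.80 over the changes. The summed cartilage markers had r = 0.73 with Fmod, 0.64 with Omd, 0.63 with Bgn and 0.17 with Dcn. Over the changes within the 8 mice this was 0.78 with Fmod and 0.89 with Omd, but 0.13 with Bgn and 0.54 with Dcn. Chad (chondroadherin), a cartilage member of the wider family, had r = 0.73 with Fmod, 0.77 with Omd and 0.14 with Lum over the libraries, and 0.82, 0.72 and -0.35 over the changes. For Prelp the highest r among the marker lists was that with the fat cell sum (0.57, and 0.75 over the changes). The part of these cells in the members' values was not tested.

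**Figure D5:**
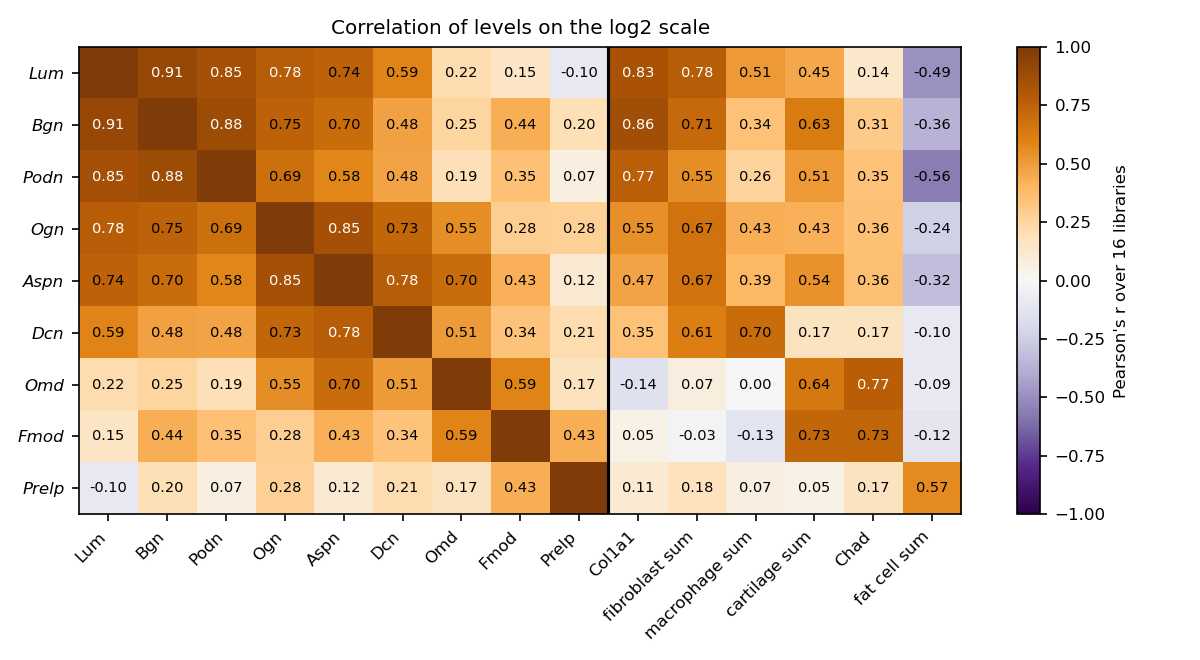
Pearson's r of levels over the 16 libraries (log2 scale) between the 9 genes (left of the line) and with Col1a1, Chad and summed marker lists (right of it), brown for positive and purple for negative. Lum, Bgn and Podn share high values with each other and with Col1a1, and Omd and Fmod with Chad and the cartilage sum.

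The counts of each list are to be read against all genes tested, of which 48.3% were lower and 51.7% higher, and 7.18% lower and 4.86% higher at an unadjusted p under 0.05. By list, 12 fibroblast markers were split 6 lower to 6 higher, with a median log2 fold change of -0.09 and sums of 559.9 to 897 CPM at 24 and 488 to 1105 CPM at 30 months. Only Fap had an unadjusted p under 0.05, and Dpt, the most abundant of them, was at -0.38 ± 0.27 (edgeR adjusted p = 0.592), with -0.57 without mouse 50 and -0.175 without mouse 29. All 14 cartilage markers tested (Matn1, nearly at 0, was not) were lower, 8 of them at an unadjusted p under 0.05 (7.18% of all genes), with a median of -0.46 and sums of 217.5 to 381 CPM and 161 to 269.8 CPM, and Comp, their most abundant gene, was at -0.35 ± 0.13. Endothelial markers were higher in 8 of 8, 5 at an unadjusted p under 0.05, where 4.86% of all genes were (median 0.56, sums of 118 to 175.5 and 124 to 345 CPM), fat cell markers in 7 of 8 (median 0.40), macrophage markers in 9 of 10 (0.24), T cell markers in 6 of 8 (0.12) and smooth muscle and pericyte markers in 7 of 8 (0.40). Skeletal muscle markers were higher in 12 of 12 (0.88), with sums from 875 to 10830 CPM at 24 months alone. Basal keratinocyte markers were lower in 6 of 8 (-0.09), differentiated keratinocyte markers in 4 of 7 (-0.16), hair follicle markers in 9 of 10 (-0.50) and nerve and Schwann cell markers in 2 of 8 (0.02). No gene of these lists passed the adjusted threshold in edgeR, and no marker was at 0 in all libraries. The most abundant markers of the skin, Krt10 and Krt14 of the epidermis, had means of 10200 and 4402 CPM, beside 847 CPM for Myh1 (muscle), 248 for Des (muscle and pericytes), 207 for Erbb3 (Schwann cells), 129.9 for Plin4 (fat cells), 125 for Csf1r (macrophages), 55.3 for Pecam1 (endothelium), 20.2 for Msx2 (hair follicle) and 12.4 for Cd3g (T cells).

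The transcripts most like a member over the 16 libraries, among 11729 genes with a mean of at least 10 CPM, are given as a description. For the mean of the 9 genes they were Bicc1 (r = 0.97), which encodes an RNA-binding protein, Ecm2 (0.95), a leucine-rich matrix protein, and Ccdc80 (0.93), a secreted matrix protein. For Bgn they were Pcolce (0.94), the enhancer of the protease that trims procollagen, Serpinf1 (0.94) and Ccdc80 (0.93). Lum was at rank 9 and Podn at rank 21 among the genes most like Bgn. For Dcn they were Qpct (0.94), Dab2 (0.90) and Csf1r (0.88), the last of which encodes the growth factor receptor of macrophages and is on the macrophage list used here. Fmod was followed by Pam (0.86), an enzyme that amidates peptides, Tbc1d16 (0.77) and Ikzf4 (0.77), and Prelp by Mppe1 (0.80), Smoc1 (0.76) and Grk5 (0.73). None passed the adjusted threshold with age in edgeR, and Ikzf4 did in DESeq2's Wald test (adjusted p = 0.0351). Their log2 fold changes ran from -0.58 ± 0.15 for Ikzf4 to 0.12 ± 0.19 for Csf1r.

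Of 8 other genes of the family, all had a fold change below 0 (48.3% of all genes tested), and 3 had an unadjusted p under 0.05 (7.18% of all genes, lower), none with an adjusted p under 0.05 in edgeR. Kera (keratocan), a cornea proteoglycan next to Lum, was rare, from 0.918 to 1.63 CPM at 24 months and from 0.0345 to 1.32 CPM at 30 months, and lower in 8 of 8 mice (log2 fold change -1.18 ± 0.34, edgeR adjusted p = 0.278). Optc (opticin) was at 4.05 to 6.73 CPM and 2.78 to 4.47 CPM and lower in 7 of 8 mice (-0.52 ± 0.12, edgeR adjusted p = 0.222, 0.0316 in DESeq2's Wald test). Ecm2 was also lower in 7 of 8, at -0.41 ± 0.14, and Chad, at 85.9 to 169.7 and then 66.5 to 138 CPM, in 6 of 8, at -0.40 ± 0.19. Epyc was close to 0 in CPM, and Nyx, Tsku and Podnl1 differed by -0.04, -0.02 and -0.03, values whose sign changed between fits.

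The enzymes that build the sugar chains were mixed. For the linker and the chondroitin and dermatan sulfate chains that decorin and biglycan carry, 21 genes were tested. Of these, 11 were lower and 10 higher (median -0.08), beside 48.3% and 51.7% of all genes tested. At an unadjusted p under 0.05, 6 were lower and none higher, beside 7.18% and 4.86% of all genes. The lowest p belonged to Fam20b, the kinase that phosphorylates the linker xylose (109 to 126 CPM at 24 months, 84.0 to 117 CPM at 30 months, lower in 8 of 8 mice, -0.27 ± 0.07, edgeR adjusted p = 0.228, 0.0341 in DESeq2's Wald test) and Ust, which sulphates uronic acid (-0.32 ± 0.10, lower in 8 of 8). For keratan sulfate, the chain of lumican and fibromodulin, 6 genes were tested, 3 lower and 3 higher (median -0.01). At an unadjusted p under 0.05 there was 1 in each direction, B3gnt7 at 0.69 ± 0.25 and Chst2 at -0.42 ± 0.16, both rare.

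The collagens to which these proteins bind were lower in 11 of 11 genes (48.3% of all genes tested), with a median of -0.24, none at an unadjusted p under 0.05 (7.18%). Their spread was large: Col3a1 was at 450.3 to 1410 CPM at 24 months and at 128 to 3424 CPM at 30 months (-0.77 ± 0.47, edgeR adjusted p = 0.531), and Col6a3 was at -0.41 ± 0.24. The sign for Col3a1 was positive in the fit without the replicate block (0.12). Mean CPM was higher at 30 months for some of the collagens and lower for the others. Col1a1 (559.8 to 668.9) and Col3a1 (731.8 to 796.0) were among those with a higher mean. The medians of both genes were lower, 501.7 and then 283.0 CPM for Col1a1, and 642.7 and then 415.2 CPM for Col3a1. Each was lower in 6 mice and higher in 2, with the largest rise in mouse 50 (2.91 for Col1a1 and 2.72 for Col3a1 on the log2 scale).

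A list of 12 genes held Bmp4, Ccn2, TGF-beta ligands and receptors, and the latent TGF-beta binding protein family. Of these 12, 8 were lower and 4 higher (median -0.05), beside 48.3% and 51.7% of all genes tested. At an unadjusted p under 0.05 there was 1 in each direction (7.18% of all genes lower and 4.86% higher). Ltbp2, a matrix protein of elastic tissue that belongs to the binding protein family by name, was at -0.53 ± 0.24. Tgfbr2, the type II receptor, was at 0.27 ± 0.10 (edgeR adjusted p = 0.413 for Ltbp2 and 0.340 for Tgfbr2). Of 9 receptors for released proteoglycans, 6 were lower and 3 higher (median -0.04), beside 48.3% and 51.7% of all genes tested. At an unadjusted p under 0.05, 0 were lower and 1, Kdr, was higher (7.18% and 4.86% of all genes). Kdr, a receptor of VEGF that is also on the endothelial list, was at 0.51 ± 0.16 and Cd14, the co-receptor of Toll-like receptors, at 0.41 ± 0.22, and 0.24 without mouse 50.

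Proteases that can cut these proteins were lower in 6 of 12 genes and higher in 6 (median -0.03), beside 48.3% and 51.7% of all genes tested. At an unadjusted p under 0.05, 3 were lower and none higher (7.18% and 4.86% of all genes). Adamts1, which cuts large proteoglycans, was at 155 to 266 CPM at 24 months and at 87.8 to 156 CPM at 30 months, lower in 8 of 8 mice (-0.62 ± 0.12, edgeR adjusted p = 0.156, 0.000304 in DESeq2's Wald test). Mmp9 was at 5.03 to 11.5 and then 1.52 to 5.57 CPM, also lower in 8 of 8 (-1.07 ± 0.26, edgeR adjusted p = 0.222, 0.0069 in DESeq2's Wald test). The other proteoglycans, outside this family, were lower in 11 of 13 genes tested (median -0.13), beside 48.3% of all genes tested. At an unadjusted p under 0.05, 3 were lower (7.18% of all genes), among them Sdc1 (-0.23 ± 0.08) and Gpc6 (-0.27 ± 0.10).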

How the data were processed

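RNA was sequenced from 16 ear biopsies (TruSeq, single-end reads of 50 nt). The authors aligned the reads with TopHat to GRCm38 and counted them per gene, and the counts they deposited are raw, whole numbers. Their processing notes list CASAVA 1.8.4, TopHat2 2.1.0 and HTSeq 0.6.1p1, and the strand setting is not given in the sources used here. The table's 5 summary lines (18.7% to 21.1% of the reads in a library) name no gene and were left out. Of 45706 identifiers, 45143 were matched to GENCODE M21, which gave symbols, positions and exon lengths.

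The test was edgeR 4.0.16 under R 4.3.3 (filterByExpr, TMM, quasi-likelihood, a term for each mouse, Benjamini-Hochberg over all genes tested, threshold 0.05). The step was also run on simulated counts. These held no differences between mice and a spread set by level alone, so they do not test the term for each mouse. Both libraries of a pair come from the same animal by the labels, although deviations from the age means were not alike within a mouse (correlation -0.47 to 0.22, median -0.03, over 8 pairs). CPM used TMM-scaled library sizes, and RPKM the union of annotated exons. Log2 changes within a mouse are ratios of CPM, and correlations used log2(CPM + 1). The members and gene lists were chosen with earlier results of these data known. Named are the 9 members, the other family genes, the 2 genes of lowest p in each pathway list, the most abundant gene of each marker list, and the 3 genes most like Dcn, Bgn, Fmod, Prelp and the members' mean. Fap, Col1a1 and Matn1 were named after their values were seen, and Bmp4 and Ccn2 only to describe a list. Alternatives were DESeq2 1.42.0, limma-voom (limma 3.58.1), other scalings and filters, age in months as a covariate, no replicate block, another length, other likeness measures and each mouse left out. Intervals for counting error were not computed, since the spread between mice was used throughout.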

Additional observations from a re-analysis of the deposited data

Results flagged for a closer look

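Among 27 sets of 8 values examined (each of the 9 genes at 24 months, at 30 months and as the change within a mouse), 1 held a sample far from the others by Dixon's ratio, where chance would give about 1.35. Lum stood at 415 CPM at 30 months in mouse 50, and the next highest library was at 184 CPM, a gap of 0.594 of the whole range, above the critical value for 8 samples. In the same mouse Col1a1 and the summed fibroblast, endothelial, macrophage and T cell markers were also higher at 30 months, by 2.91, 0.98, 1.23, 1.79 and 1.80 on the log2 scale, and their part in the value of Lum was not tested.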

How the results depend on the processing

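All 9 members kept a fold change below 0 under DESeq2's size factors, library size alone, both other filters, limma-voom, DESeq2's Wald test, age as a covariate and the fit without the replicate block. With each mouse left out, 8 to 9 were below 0, Dcn running from -0.171 to 0.017. Members at an unadjusted p under 0.05 numbered 5, but 2 without the replicate block, 3 with age as a covariate and 1 to 6 with a mouse left out. Genes past the adjusted threshold numbered 0, but 240 in DESeq2's Wald test and 3 without the replicate block. The named genes among the 240 were Optc, Fam20b, Adamts1, Mmp9 and Ikzf4, with adjusted p from 0.000304 to 0.0351. Genes of the pathway lists at an unadjusted p under 0.05 numbered 17, and 11 to 23 with a mouse left out (11 without mouse 21 or 75). These lists held 21, 6, 11, 12, 9, 12 and 13 genes tested. Over all 21526 genes tested the number in either direction was 2593, and 1833 to 3772 with a mouse left out. Of the 15 places for most similar genes, 5 held the same gene with Spearman's correlation and 4 over changes alone. The cause of these differences was not tested.

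Signs that turned are given on the log2 scale. Without the replicate block they were those of Nyx (0.184), Podnl1 (0.265), Col3a1 (0.121), Krt14 (0.024) and Cd3g (0.076), in limma-voom those of Nyx (0.063), Podnl1 (0.132) and Cd3g (0.039), and per month of age those of Tsku (0.002), Podnl1 (0.008) and Cd3g (0.001). With a mouse left out the range crossed 0 for Nyx (-0.313 to 0.069), Podnl1 (-0.367 to 0.134), Tsku (-0.103 to 0.062), Krt14 (-0.107 to 0.054), Cd3g (-0.145 to 0.141), Csf1r (-0.027 to 0.245), Erbb3 (-0.074 to 0.097), Dab2 (-0.122 to 0.063), Mppe1 (-0.041 to 0.033), Smoc1 (-0.166 to 0.071) and Grk5 (-0.169 to 0.014). Depth did not limit the members, which had at least 497 counts in each library. The number of mice and the change of ear with age do, as does the unstated strand setting of the counting.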
